A study of Mus musculus with 4 samples.

Results

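The deletions described here are 904 records of 21 or more bases that were listed in 1 of 2 mouse cancer cell lines only and whose annotated effect was neither a frameshift, a codon change nor the loss of a splice site. MBT2 had 527 of them, among 2023 deletions of that length and 6361 variants of all kinds. LM8 had 377, among 1633 long deletions and 5445 variants. They were chosen by length, by absence from the other line's list and by the annotated effect, so the counts per line are a description. Among MBT2 deletions in 1 list without a coding effect, the longest below the length limit had 14 bases, in Mrpl24. In the same set 2 deletions stood exactly at 21 bases, in Slc26a10 and Smad5. In LM8 the shortest deletion described here had 25 bases, in Tmem9.

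MBT2 is a bladder cancer line, here with the clone label 63, and was grown in RPMI-1640. LM8 is an osteosarcoma line and was grown in MEM with HEPES. Both lines are syngeneic with C3H/HeN mice, both media held 10% serum, and neither culture was treated. For each line, 2 libraries of poly(A) RNA were sequenced with strand information as paired reads of 75 bases, and 1 joint list of variants against the reference genome GRCm39 was deposited. Nothing in the labels tells separate cultures from repeated preparations, so a difference between duplicates may be purely technical. A list of this kind holds no expression values. None of these deletions lay in a marker gene of urothelium (16 genes searched), bone (15 genes) or other cell types (8 genes), so the identity of the cells could not be checked from them.

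Introns are the stretches of a primary transcript that the spliceosome removes. Nearly all begin with the letters GT and end with AG in the DNA sequence. In compact genes many introns are short, and some remain in part of the polyadenylated RNA as retained introns, which annotations list as transcripts of their own. A second, unrelated route removes a short piece from Xbp1 mRNA in the cytoplasm. There the stress sensor IRE1 of the endoplasmic reticulum cleaves the RNA, and the shifted reading frame encodes an active transcription factor of the unfolded protein response.

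The deleted bases of 3 deletions are shown first because they carry the most frequent pattern: GT at the first 2 bases, AG at the last 2 and an annotated intron of the same length. Sequences are the reference letters of the deposited list on GRCm39, written 5′ to 3′ on the strand of the reads, and capitals mark the end letters. Because repeated letters at the ends let a deletion be written at several positions, each was moved right by up to 5 bases to the position with these letters. All 3 lie on the plus strand. The Nop56 deletion is at chr2:130118544-130118626, that of Hnrnpl at chr7:28517958-28518068 and that of Trim28 at chr7:12762482-12762590.
Nop56 MBT2: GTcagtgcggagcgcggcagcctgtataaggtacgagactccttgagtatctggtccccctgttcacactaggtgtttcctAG
Hnrnpl MBT2: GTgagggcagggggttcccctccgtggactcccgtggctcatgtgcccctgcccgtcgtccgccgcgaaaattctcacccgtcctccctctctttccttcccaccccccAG
Trim28 LM8: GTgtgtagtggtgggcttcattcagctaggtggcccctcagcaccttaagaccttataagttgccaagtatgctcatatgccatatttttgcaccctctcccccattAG
Nop56 encodes a core protein of the box C/D snoRNPs that guide ribosomal RNA methylation. Hnrnpl is an RNA-binding splicing regulator, and Trim28 is a corepressor that silences retroelements.

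The Nop56 deletion of 83 bases was read in 72.1% of 956 reads in the first and 70.0% of 1075 reads in the second MBT2 library. The Hnrnpl deletion of 111 bases was read in 43.0% of 848 and 41.3% of 957 reads. It was the 1 deletion of the 904 whose share of reads lay between 40% and 60%. The Trim28 deletion of 109 bases was read in 89.5% of 354 and 88.3% of 333 LM8 reads. The 3 shares differed between genes by much more than between the duplicate libraries.

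Across all sites the share of reads with the deletion, taken over reads with and without it in both libraries, fell into a high and a low range with nearly nothing between. The median share was 87.4% in MBT2 (quartiles 20.8% and 91.9%) and 85.7% in LM8 (quartiles 13.0% and 91.7%). At least 80% of reads carried the deletion at 353 MBT2 sites, or 67.0% (95% exact Clopper-Pearson interval 62.8% to 71.0%), and at 233 LM8 sites, or 61.8% (56.7% to 66.7%). Under 10% of reads carried it at 95 MBT2 sites, or 18.0%, and at 86 LM8 sites, or 22.8%. Between 40% and 60% lay 1 MBT2 and 0 LM8 sites. The intervals here and below are over sites and cover counting error only, and sites of 1 gene are not independent. Reads after amplification are not independent molecules either. The lines have different sites here, so no test between them was made. Depth had a median of 128 reads per site in MBT2 (22 to 6271) and 119 in LM8 (22 to 2406).

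**Figure D1:**
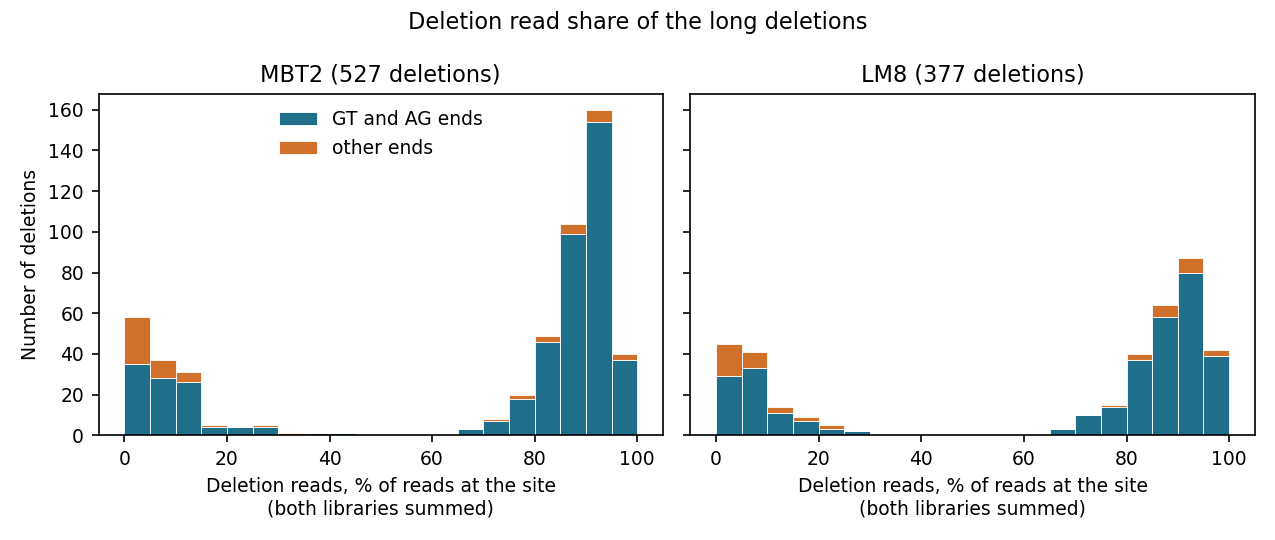
Number of deletions (vertical axis) by the percent of reads at the site that carry the deletion (horizontal axis, both libraries of a line summed), for 527 MBT2 deletions on the left and 377 LM8 deletions on the right, with colours for deletions that begin with GT and end with AG and for those with other ends. Both lines show a tall group at or above 60% and a smaller one below 40%.

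The deleted bases began and ended like an intron at most sites. GT and AG ends were found in 467 of 527 MBT2 deletions, or 88.6% (85.6% to 91.2%), and in 326 of 377 LM8 deletions, or 86.5% (82.6% to 89.8%). Both strands were searched, so CT and AC ends in the plus-strand letters counted for a transcript of the minus strand. Of the other long deletions, these ends were found in 95.1% of 751 MBT2 and 94.3% of 511 LM8 deletions that were in 1 list with a coding or splice site effect, and in 97.0% of 745 that were in both lists. Of deletions of 4 to 20 bases, 1 of 12 in MBT2 and 0 of 14 in LM8 had them. The rule removed lost splice sites, which make up much of the coding set, so the shares of these sets are given as a description with no test.

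The end letters depended on moving the deletion along repeated letters: as written in the lists, 61 MBT2 deletions, or 11.6%, and 39 LM8 deletions, or 10.3%, had them. The deletions are written at their leftmost position. Where the deleted bases could be found in a transcript sequence, the move that gave the ends was one that the repeated letters allow in 310 of 310 deletions of both lines. The reads also carry a strand, and the ends fell on that strand in 757 of 761 deletions. Where several placements had such ends, one on the strand of the reads was preferred, so this count is in part set by that choice.

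Further into the deleted bases the letters also resembled those of introns. Among deletions with GT and AG ends at or above 60% of reads, 187 of 364 MBT2 deletions, or 51.4%, began with GTAAG or GTGAG, and so did 124 of 241 LM8 deletions, or 51.5%. Among those below 60%, the first 5 letters were one of these in 40 of 103 in MBT2, or 38.8%, and in 20 of 85 in LM8, or 23.5%. The third letter from the end was C in 77.2% of the 364 high-share MBT2 deletions and in 71.4% of the 241 LM8 ones. In the 20 bases before the last 3, the median content of C or T was 70% in MBT2 and 75% in LM8. Share of reads and end letters together gave 4 classes. High with GT and AG ends were 364 MBT2 and 241 LM8 deletions, low with these ends 103 and 85, high with other ends 20 and 20, and low with other ends 40 and 31. The limit of 60% between high and low was chosen after the values were seen.

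Lengths were narrow for deletions of this kind. The median was 94 bases in MBT2 (21 to 230) and 95 bases in LM8 (25 to 263). Of 24 MBT2 deletions of at most 60 bases, 1 had GT and AG ends, and of 26 LM8 deletions 5 had them. Lengths divisible by 3, which would keep a reading frame, made up 172 of 527 in MBT2, or 32.6%, and 133 of 377 in LM8, or 35.3%. The longest MBT2 deletion, of 230 bases in the topoisomerase gene Top3b, was read in 84.7% of 72 and 92.1% of 89 reads. The longest LM8 deletion had 263 bases, is named for Gm20337, and was found in transcripts of the splicing factor gene Srsf5. It was read in 5.23% of 153 and 5.84% of 154 reads. Long deletions thus stood in both the high and the low range.

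**Figure D2:**
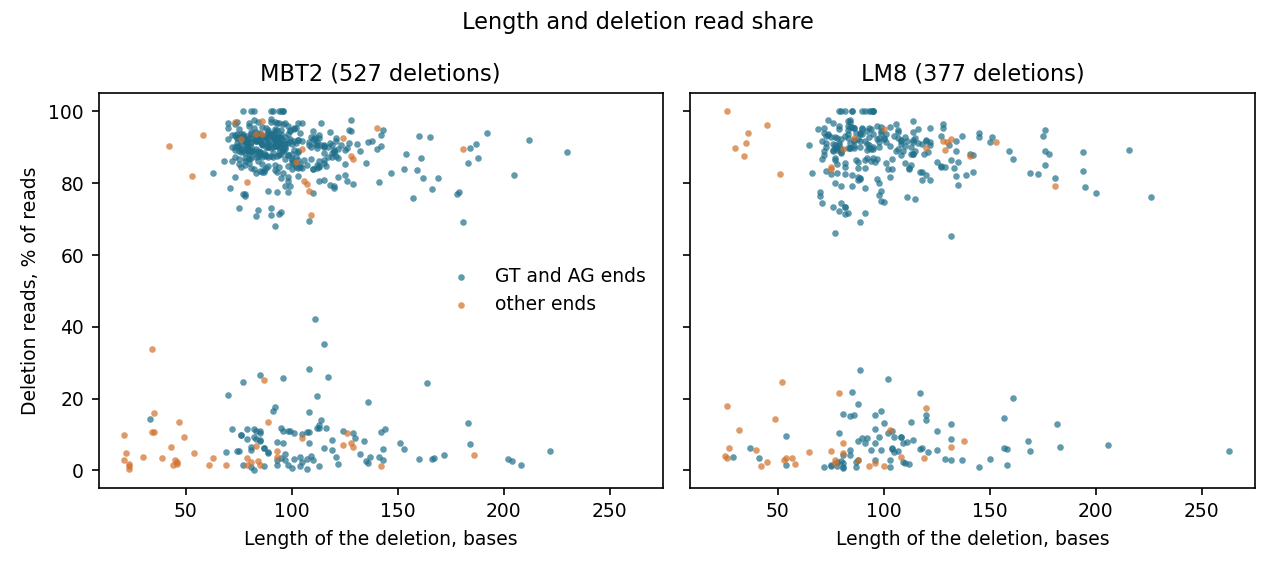
Percent of reads that carry the deletion (vertical axis) against its length in bases (horizontal axis), 1 point per deletion, MBT2 on the left and LM8 on the right. Deletions with GT and AG ends gather from about 60 bases upward at high shares, while the shortest deletions mostly have other ends.

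Many lengths equalled that of an annotated intron. The annotation at hand is of an older genome build, so lengths, strands and gene order were compared and no coordinates. Of the MBT2 deletions, 186, or 35.3%, had the length of an intron of the gene named in the list, and 366, or 69.4%, that of an intron of this gene or of a gene within 10 kb on the strand of the reads. In LM8 these were 146, or 38.7%, and 258, or 68.4%. Of the high-share deletions with GT and AG ends, 333 of 364 in MBT2, or 91.5%, and 230 of 241 in LM8, or 95.4%, had such a length. Lengths up to 5 bases shorter or longer than those deletions matched an intron in 16.8% of trials on average in MBT2 and 10.4% in LM8. The match was far less frequent in low-share deletions with the same ends, at 28 of 103 in MBT2, or 27.2%, and 25 of 85 in LM8, or 29.4%. For these, lengths up to 5 bases shorter or longer matched in 6.70% of trials on average in MBT2 and 6% in LM8. With other ends, 5 of 20 high-share and 0 of 40 low-share deletions matched in MBT2, and 1 of 20 and 2 of 31 in LM8.

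**Figure D3:**
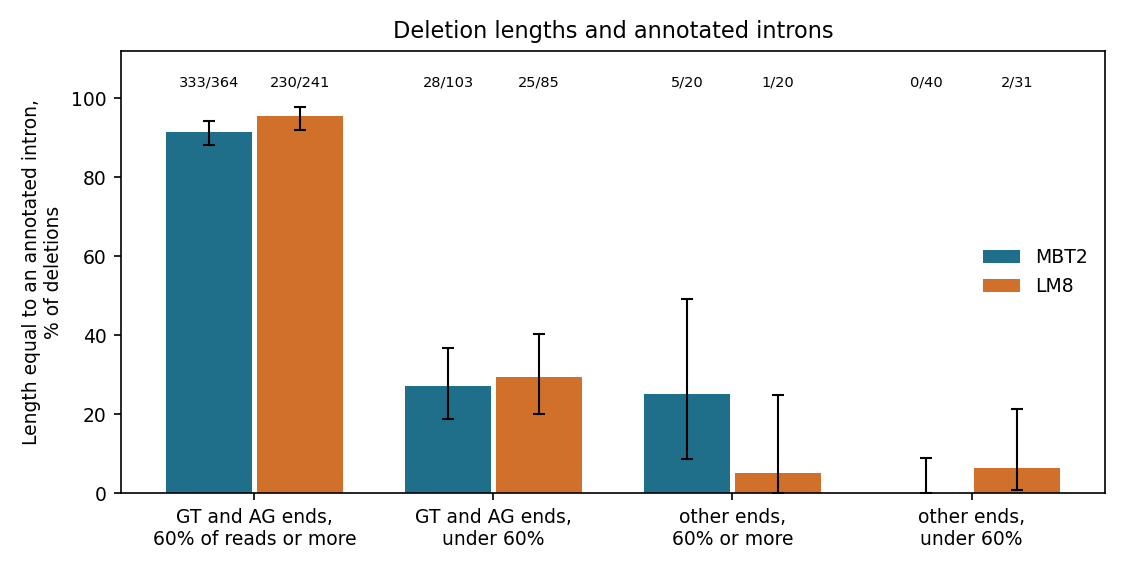
Percent of deletions whose length equals an intron of the named gene or of a gene within 10 kb on the strand of the reads (vertical axis), by class of ends and read share, with MBT2 left of LM8. Bars show the share, error bars the exact 95% interval and the numbers above them the counts, such as 333 of 364 MBT2 and 230 of 241 LM8 deletions in the high-share class with GT and AG ends.

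The annotated introns were mostly those of coding sequence. The rule had removed frameshifts, codon changes and lost splice sites, so few coding effects could remain. A lost stop codon was named for 1 MBT2 deletion, in Krt80, and for 1 LM8 deletion, in Cbr2. An intron of the matching length lay between coding exons for 338 MBT2 deletions, or 64.1%, and for 228 LM8 deletions, or 60.5%. The label non-coding thus rests on the single effect in the list, and by these lengths alone, without coordinates, most deletions could be matched to an intron between coding exons. The named effect was upstream of a gene for 327 MBT2 and 216 LM8 deletions and downstream for 145 and 108, with median distances of 2054 and 1398.5 bases upstream and 1960 and 1993 bases downstream. A 3′ untranslated region was named for 28 and 22, an intron for 7 and 9 and a 5′ untranslated region for 1 and 9. Where a length matched, the intron belonged to a gene other than the named one in 194 of 366 MBT2 deletions, or 53.0%, and in 116 of 258 LM8 deletions, or 45.0%. The named transcript was itself annotated as a retained intron for 161 MBT2 deletions, or 30.6%, and 128 LM8 deletions, or 34.0%.

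The reads showed the same distance between named gene and transcript. A directional library gives the strand of the transcript from the orientation of the read pairs, and at least 90% of reads of 1 orientation were required for a call. The named gene lay on the strand of the reads in 356 of 492 MBT2 deletions, or 72.4%, and in 266 of 361 LM8 deletions, or 73.7%. For long deletions with a coding or splice site effect in 1 list the shares were 99.4% in MBT2 and 99.8% in LM8. Plus-strand transcripts gave 791 of 904 deletions described here, or 87.5% (85.2% to 89.6%), against 201 of 1262 with a coding or splice site effect, or 15.9% (13.95% to 18.06%). For the 745 deletions in both lists it was 45.8% by the MBT2 reads and 46.3% by the LM8 reads.

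The strand followed the annotated effect. Plus-strand transcripts gave 518 of 543 deletions called upstream, or 95.4%, and 239 of 253 called downstream, or 94.5%, but 14 of 50 in a 3′ untranslated region, or 28.0%. Among deletions in both lists, each counted once per line, 384 of 386 records called upstream were also on the plus strand. Frameshift deletions in 1 list were on it in 70 of 591 cases, or 11.8%, and lost splice acceptors in 107 of 614, or 17.4%. The same separation by effect thus held in deletions that the rule on single lists did not choose. The annotated effect is part of the rule, so the deletions described here and the coding or splice site set are split by effect. Their difference in strand is therefore not separate from that choice. Why strand followed effect was not tested.

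**Figure D4:**
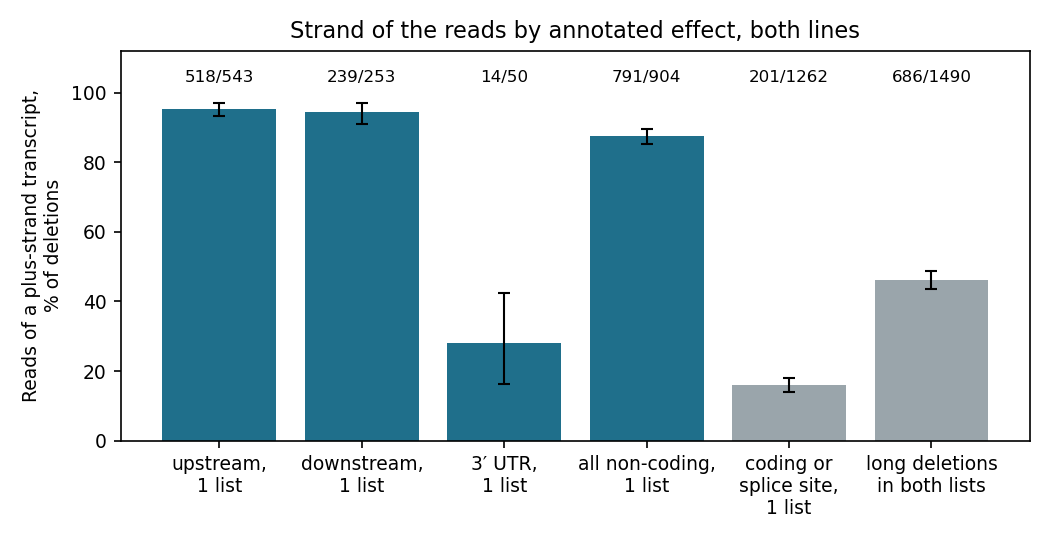
Percent of deletions with reads from a plus-strand transcript (vertical axis) for 3 annotated effects among the deletions described here, for all 904 of them, and in grey for the other long deletions, both lines together, with deletions in both lists counted once per line. Error bars are exact 95% intervals and the counts stand above the bars. Deletions called upstream or downstream lie near 95%, and coding or splice site deletions at 15.9%.

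The joined sequence was already known as a spliced transcript for most high-share deletions that could be checked. For 199 high-share deletions with GT and AG ends the deleted bases were found in an annotated transcript, which gave the letters to both sides. The 30 letters left after joining both sides were present in an annotated transcript in 188 of them, or 94.5% (90.3% to 97.2%). This held in 37 of 111 low-share deletions with GT and AG ends, or 33.3%, in 3 of 7 high-share ones with other ends, and in 6 of 55 low-share ones with other ends, or 10.9%. In the last of these classes 40 of 55 deletions, or 72.7%, had a repeat of 3 or more letters at their ends, against 87 of 199, or 43.7%, in the first. DNA was not read in this study, so whether bases were missing from the genome or removed from the RNA was not tested.

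Some deletions shared 1 end and differed at the other, the arrangement known from alternative splice sites. The next sequences are shown because they carry it. In MBT2 both Usp19 deletions begin at the same base, at chr9:108375236-108375321 and chr9:108375236-108375330, with last bases 9 apart. Capitals again mark the end letters, and the shorter deletion's last letters can be read inside the longer one.
Usp19 MBT2 86 bases: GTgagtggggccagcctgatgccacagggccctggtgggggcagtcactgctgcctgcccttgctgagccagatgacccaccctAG
Usp19 MBT2 95 bases: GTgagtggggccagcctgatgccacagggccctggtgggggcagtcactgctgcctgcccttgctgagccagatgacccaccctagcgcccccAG
Usp19 encodes a deubiquitinating enzyme. The 86-base deletion was read in 87.4% of 246 and 87.2% of 211 reads, and the 95-base deletion in 8.17% of 257 and 15.7% of 242 reads. The deletion with the nearer end had the larger share in both libraries, and both lengths equal an annotated intron.

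Deletions of the lines that shared 1 end formed 5 pairs in which both deletions are among those described here, and 3 of these pairs are shown. The Neurl4 deletions end at the same base, at chr11:69798839-69798921 in MBT2 and chr11:69798833-69798921 in LM8, with first bases 6 apart. The Slc4a2 deletions begin at the same base, at chr5:24639238-24639335 in MBT2 and chr5:24639238-24639318 in LM8, with last bases 17 apart. The deletions named for Ptger1 begin at the same base, at chr8:84388770-84388863 in MBT2 and chr8:84388770-84388872 in LM8, with last bases 9 apart, and the MBT2 length is that of an intron of the neighbouring gene Gipc1.
Neurl4 MBT2: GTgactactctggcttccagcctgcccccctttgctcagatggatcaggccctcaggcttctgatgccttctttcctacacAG
Neurl4 LM8: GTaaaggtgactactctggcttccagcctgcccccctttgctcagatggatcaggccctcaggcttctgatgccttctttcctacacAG
Slc4a2 MBT2: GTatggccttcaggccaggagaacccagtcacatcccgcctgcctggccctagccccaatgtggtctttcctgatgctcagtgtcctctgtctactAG
Slc4a2 LM8: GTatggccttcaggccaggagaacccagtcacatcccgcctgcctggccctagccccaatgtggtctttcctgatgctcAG
Ptger1 MBT2: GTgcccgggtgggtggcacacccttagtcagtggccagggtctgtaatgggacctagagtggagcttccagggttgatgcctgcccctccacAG
Ptger1 LM8: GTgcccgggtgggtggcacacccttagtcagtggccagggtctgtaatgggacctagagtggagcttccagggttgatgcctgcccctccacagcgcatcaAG
Slc4a2 encodes an anion exchanger of the plasma membrane, and Ptger1 a receptor for prostaglandin E. The Neurl4 deletion was read in 91.4% and 92.0% of the reads of the MBT2 libraries and the longer one in 30% and 25.9% of those of LM8. The Slc4a2 deletion was read in 92.7% and 89.7% of MBT2 reads, and its shorter counterpart in 0.904% and 0.617% of LM8 reads. The Ptger1 deletion was read in 88.3% and 94.8% of MBT2 reads, and the longer one in 1.98% and 0% of LM8 reads. In these 3 pairs the MBT2 deletion was in the high and the LM8 deletion in the low range. The other pairs went otherwise. In Ulk3, a kinase gene, a 74-base deletion was read in 5.71% and 5.41% of MBT2 reads and a 71-base one in 87.5% and 85.7% of LM8 reads. In Ciz1 a 93-base deletion was read in 6.98% and 9.04% of MBT2 reads and a 105-base one in 5.36% and 5.03% of LM8 reads. Both directions and a pair low in both lines thus occurred. The MBT2 end was not tested for use in LM8, since each list gives reads for its own records only.

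Such overlaps were few. Of the MBT2 deletions, 13 overlapped a long deletion of the LM8 list and 24 another one of their own list. In LM8 these were 15 and 19. Where both deletions of an overlapping pair had GT and AG ends on the same strand, each pair was counted once. Within MBT2, 12 of 13 such pairs shared 1 end, with the other ends 4 to 54 bases apart (median 17), and in 9 of these 12 pairs 1 deletion was high and 1 low. Within LM8, 11 of 11 such pairs shared 1 end, with the other ends 3 to 92 bases apart (median 33), and in 8 of them 1 was high and 1 low. Slc27a1, a fatty acid transporter gene, held a 65-base deletion at 93.5% and 86.2% of LM8 reads and an overlapping 157-base one at 13.8% and 15.8%. Timeless, a replication fork protein gene that the list names as Apon, held an 83-base deletion at 94.7% and 92.9% of MBT2 reads and a 104-base one at 3.03% and 4.35%. Most such pairs within a line combined a frequent and a rare deletion with 1 common end.

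The deletion of 26 bases shown next stands apart by sequence and by gene. It is listed in LM8 as downstream of Ccdc117, at chr11:5474279-5474304 on the plus strand, and its letters were found in transcripts of Xbp1. No end letters are marked, since it does not have those of an intron. It is written 1 base to the right of its listed position. This placement was set by hand, and repeated letters at the ends allow moves of up to 6 bases.
Xbp1 LM8: cagcactcagactatgtgcacctctg
In this placement these are, as background, the letters of the piece that IRE1 is known to excise from Xbp1 mRNA. The deletion was read in 17.9% of 195 and 17.8% of 174 LM8 reads, so the duplicates differed by far less than their counting error. The MBT2 list had no record there, and a site that is not listed gives no read count, so its share in MBT2 was not measured. Hspa5, which encodes the endoplasmic reticulum chaperone BiP and is a known target of the unfolded protein response, had an 82-base LM8 deletion with GT and AG ends at 71.2% of 678 and 71.9% of 615 reads. Hyou1, another chaperone gene of this compartment, had a 110-base LM8 deletion at 1.98% of 455 and 2.27% of 440 reads. The shares of these deletions are shares of reads at 1 site and not expression levels.

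Deletions with other ends were of several kinds, and the following sequences show a minor intron type and a high-share deletion without any end letters. The MBT2 deletion named for Snora3 lies at chr7:109118683-109118791 on the plus strand and has the length of an intron of the neighbouring ribosomal protein gene Rpl27a. It begins with GC and ends with AG, marked in capitals, as a known minority of introns does. The LM8 deletion in Spcs2, a signal peptidase subunit gene, lies at chr7:99494050-99494100 on the minus strand.
Snora3 MBT2: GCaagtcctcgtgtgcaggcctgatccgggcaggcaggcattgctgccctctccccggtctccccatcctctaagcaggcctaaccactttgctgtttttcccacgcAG
Spcs2 LM8: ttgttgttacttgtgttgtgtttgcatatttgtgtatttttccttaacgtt
The Snora3 deletion was read in 68.7% and 73.5% of MBT2 reads, and the Spcs2 deletion in 87.6% and 77.6% of LM8 reads. The Spcs2 stretch held 30 T letters among 51. The list places it in an intron, and it is shorter than nearly all deletions with GT and AG ends. A deletion of 108 bases in Ddb1, which encodes a damaged-DNA binding protein, was read in 76.8% and 78.5% of MBT2 reads. It began with AT and ended with AC, the ends known from some introns of the minor spliceosome. Its length matched no annotated intron, and whether it is one was not tested. With both strands searched, high-share deletions with other ends had these letters in 1 of 20 in MBT2 and 5 of 20 in LM8. Low-share ones had them in 0 of 40 and 1 of 31. On the called strand of the reads, only the Ddb1 deletion had AT and AC ends, in either line.

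The site with the most reads was a low-share one with other ends. In Slc25a5, which encodes an ADP and ATP carrier of mitochondria, a 186-base deletion with GC and AG ends was read in 4.39% of 3005 and 4.16% of 3266 MBT2 reads. In Vars, the valyl-tRNA synthetase gene, a 126-base deletion was read in 10.7% of 1354 and 10.3% of 1391 MBT2 reads. The lowest share was that of an 82-base deletion in Eif4g1, a translation initiation factor gene, at 0.127% and 0.176% of MBT2 reads. In LM8 the deepest was a 132-base deletion listed in the 3′ untranslated region of the cyclin gene Ccna2, read in 14.4% of 1244 and 11.3% of 1162 reads. Its reads had no called strand, so no transcript was assigned to it. Next came 2610300M13Rik with 169 bases at 5.35% of 1233 and 5.25% of 1104 reads, and Efhd1 with 125 bases at 6.21% of 1159 and 5.16% of 1124 reads. A 102-base LM8 deletion with the length of an intron of Adgra2, listed downstream of Brf2, was read in 25.7% of 812 and 25% of 824 reads. The shares at these sites were low and differed little between the duplicates, while other deep sites, such as those of Nop56, Hnrnpl and Hspa5, had higher shares.

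Noncoding RNAs gave 4 MBT2 deletions and 0 LM8 deletions from a list of 43 genes, all 4 with GT and AG ends and all in the low range. Neat1, the scaffold RNA of paraspeckles, held 1 of 166 bases at 2.79% and 3.49% and 1 of 143 bases at 5.08% and 6.93% of reads. Malat1, an abundant nuclear RNA, held 1 of 142 bases at 11.0% and 10.5%. Snhg1, a host of small nucleolar RNAs, held 1 of 81 bases at 5.33% and 5.80%. The list had any record in 8 genes in MBT2 and 6 in LM8.

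Splicing factor genes gave 11 MBT2 deletions and 4 LM8 deletions from a list of 60 genes, of which 44 had any record in MBT2 and 36 in LM8. A deletion was counted if the list named such a gene or if its length was that of an intron of one. By name these were 8 in MBT2 and 1 in LM8. The MBT2 deletion named for Srsf2 has the length of an intron of its neighbour Mfsd11. All 15 had GT and AG ends, and 4 in MBT2 and 2 in LM8 reached 60% of reads. The kinase gene Clk4, which phosphorylates SR proteins, had a 77-base deletion at 92.5% and 93.5% of MBT2 reads. Son, a nuclear speckle protein gene that overlaps the named gene Donson, had one of 112 bases at 91.2% and 88.4%. Both are in the high range. At the low end, Hnrnph1 had a 100-base deletion at 0.664% and 0.654% of MBT2 reads, Srsf7 one of 137 bases at 3.28% and 4.06%, and Srrm2 one of 132 bases at 3.22% and 6.03%. U2af1l4, a paralog of the U2AF subunit that recognises the acceptor AG, was named as Lin37 in the list and had an MBT2 deletion of 85 bases at 93.9% in both libraries and another of 101 bases at 1.53% and 4.62%. In LM8 it had one of 95 bases at 89.0% and 90.1%. Zrsr2, which recognises acceptors of the minor spliceosome, had deletions of 107 bases in MBT2, at 9.95% and 11.5%, and of 109 bases in LM8, at 3.76% and 0.599%. The MBT2 deletion of Zrsr2 had no called strand. The high and low ranges both occurred within this group.

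Genes of cancer, chromatin and repair are given by their counts. As for splicing factors, a deletion was counted by the named gene or by a matching intron length, so some belong to a neighbour. Of 42 cancer drivers, 18 had any record in MBT2 and 16 in LM8, with 5 and 4 long deletions of all kinds named for them. Deletions described here numbered 0 in MBT2 and 2 in LM8. In LM8, 1 was listed downstream of Axin1, with 86 bases at 96.6% and 88.0% of reads and no matching intron length. The other lay in the 3′ untranslated region of Rhob, with 54 bases at 2.00% and 4.85%. Of 30 chromatin regulators, 22 had any record in MBT2 and 19 in LM8, with 27 and 13 long deletions of all kinds named for them. Deletions described here numbered 2 in MBT2 and 3 in LM8. Among them was 1 listed downstream of the remodeller gene Chd4, of 164 bases at 16.7% and 31.7% of MBT2 reads. Its length matched no intron, and its letters were not found in a transcript. Another, in Asxl1, a Polycomb-related gene, had 122 bases at 88.3% and 94.4% of LM8 reads. Of 25 DNA repair genes, 16 had any record in MBT2 and 13 in LM8, with 23 and 19 long deletions of all kinds named for them. Deletions described here numbered 6 in MBT2 and 2 in LM8, all 8 with GT and AG ends. An intron length of a listed gene was matched by 4 and 2 of these. The MBT2 deletion named for Recql4 has the length of an intron of its neighbour Lrrc14. The MBT2 ones included Ercc2, a helicase of nucleotide excision repair, with 101 bases at 97.4% and 93.8%. Another was listed downstream of Fanca, of crosslink repair, with 70 bases at 22.5% and 19.8%, and had no called strand and no matched intron length.

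Several deletions often lay in the same stretch of the genome. In MBT2 the list named Usp19 for 9 deletions, all with GT and AG ends and an intron length, which belonged to Usp19 or to the neighbours Lamb2 and Qars. Their read shares were 11.8% to 95.05%, with a median of 88.3%. Rnf123 was named for 7, at 72.6% to 92.7%, with lengths of introns of its neighbours Mst1 and Gmppb on the other strand. Col7a1, the anchoring fibril collagen gene, held 6, at 90.4% to 100%, and Ifitm5 was named for 5 with introns of Pgghg, at 92.2% to 97.5%. Htra2 was named for 4 with lengths of introns of Aup1, at 86.9% to 89.0%. In LM8 no gene had more than 3. The LM8 genes with 3 included Plxna3, a semaphorin receptor, at 95.2% to 97.3%, Map4k2 at 82.8% to 91.0%, Morc2a at 90.6% to 92.5%, and the kinase gene Dmpk at 2.13% to 2.35%. A single deletion was found for 348 genes in MBT2 and 279 in LM8. Within a gene the shares were mostly alike, and deletions of 1 gene are not independent.

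The gene was often seen in both lines even though the deletion was not. Another record of the named gene stood in the other line's list for 45.0% of 522 named MBT2 deletions and for 47.7% of 373 named LM8 deletions. No deletion described here has reads listed at its site in the other line, so absence from a list is not absence of the deletion.

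The duplicate libraries of each line were the only libraries in which the same sites could be compared. A two-sided test by Fisher's exact method, with p adjusted after Benjamini and Hochberg over all records of a list and a threshold of 0.05, called 0 of 527 MBT2 and 0 of 377 LM8 deletions different, against 0% of all records in both lists. At an unadjusted p under 0.05 it called 22 MBT2 deletions, or 4.17%, against 3.76% of all 6361 records, and 19 LM8 deletions, or 5.04%, against 3.89% of all 5445 records. These shares are near the background of the lists. The shares of reads differed by at most 10 percentage points at 469 MBT2 sites, or 89.0%, and at 337 LM8 sites, or 89.4%. In 18 MBT2 and 16 LM8 deletions 1 library had no read with the deletion. The lowest p was that of a 79-base MBT2 deletion named for Rnf123, with the length of an intron of Mst1, read in 92.4% of 66 and 69.0% of 71 reads (exact p = 0.000553, adjusted p = 0.644).

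**Figure D5:**
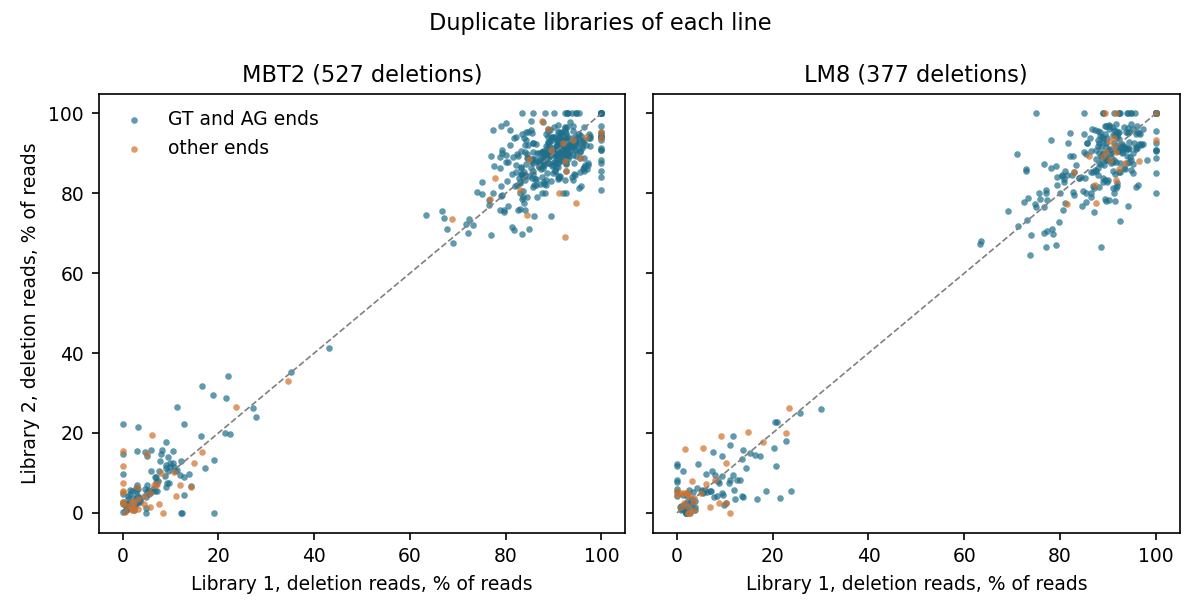
Percent of reads with the deletion in the second library (vertical axis) against the first (horizontal axis), 1 point per deletion, MBT2 on the left and LM8 on the right. The dashed line marks equal shares. Points gather along it at both ends of the range, and 89.0% of MBT2 and 89.4% of LM8 deletions lie within 10 percentage points.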

How the data were processed

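MBT2 and LM8 poly(A) RNA was measured in 4 libraries, 2 per line, grouped by the line in their titles, per the labels. The deposited lists hold reads per allele and library and the caller's fraction. Both libraries were called jointly with Mutect 2.2 without a matched normal, filtered and selected with GATK 4.1.5.0 and annotated with 1 effect by SnpEff 5.1d on GRCm39, database 105, per the file headers. The submitters' processing notes name bcl2fastq 2.17.1.14, cutadapt 1.9.1, STAR 2.7.9a and GATK 4.3.0. The sources do not state how the caller was given reads that span introns, so reads without a deletion are not taken for unspliced RNA.

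Computed here were the share of reads with the deletion, end letters after moves of 0 to 5 bases, strand from read pair orientation (at least 90%), intron lengths from GENCODE M21 (GRCm38, so no coordinates were used), and the 15 letters on each side joined and searched in transcripts. Shares have exact Clopper-Pearson 95% intervals. Median reads per library were 63 and 66 in MBT2 and 60 and 59 in LM8. The scripts were tested on simulated data.

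The deletions, gene lists and tests were chosen with earlier results of these data known. Deletions were named from the deepest, longest, shortest and overlapping ones, the genes with the most deletions and the gene lists. The Trim28, Snora3, Ddb1, Neurl4, Slc27a1 and Timeless deletions were chosen for display after their values were seen. The label numbers 22 for MBT2 and 7 for LM8 have no stated meaning and were not used. Python 3.11.15, numpy 2.4.6, pandas 2.3.3, scipy 1.17.1 and matplotlib 3.10.9 were used.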

Additional observations from a re-analysis of the deposited data

How the results depend on the processing

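No paired analysis was possible because no result comes from a test between the lines, whose deletions are different sites. Counts of deletions stayed within 1.5 times under every limit on length, overlap, depth and reads in both libraries (484 to 527 in MBT2, 349 to 377 in LM8). The median share was 82.3% in MBT2 and 80.9% in LM8 by the caller's own fraction, and 86.5% and 84.1% with at least 40 reads. In single libraries it was 86.9% and 86.9% in MBT2 and 84.5% to 86.4% in LM8. Sites at or above 80% made up 65.7% to 66.6% in single MBT2 libraries and 59.4% to 60.2% in LM8, against 72.9% and 69.2% with a limit of 60%, and 38.0% and 34.2% with a limit of 90%. GT and AG ends fell to 11.6% in MBT2 and 10.3% in LM8 as listed, and to 61.3% and 59.9% on the annotated gene's strand only. On the strand of the reads only, an alternative chosen after seeing the data like those of moves by up to 10 bases and of at least 40 reads, they stood at 84.4% in MBT2 and 82.8% in LM8. Moves by up to 10 bases gave 90.3% and 87.8%, and at least 40 reads 88.4% and 86.5%. Intron lengths matched 69.4% and 68.4% with neighbouring genes, against 35.3% and 38.7% without. The cause of these differences was not tested beyond what each setting changes itself. No deletion was called different between duplicates with at least 40 reads either.

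Depth limits single sites: at the median of 128 reads in MBT2 and 119 in LM8, small shares rest on few reads. Absence from a list gives no read count for the other line.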
